A study of Oryctolagus cuniculus with 2 samples.

Results

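The general photoreceptor score is 1 of 9 module scores that the authors deposited for every nucleus of a rabbit retina data set, and the only one named for photoreceptors in general and not for a single cell type. All 6542 of 6542 nuclei carried a value and all were described here, by the authors' cell type, cluster and library and by the number of unique molecular identifiers (UMIs, counted RNA molecules) per nucleus. A module score of this kind is the mean log-normalised level of a gene list minus that of control genes, so it is on a log scale and its differences, not its ratios, are given. The genes of the list were not used here and none is named.

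Rods and cones are the light-sensing neurons of the retina. Rods work in dim light and cones in daylight and colour vision, and both turn light into a change in membrane voltage through the phototransduction cascade in their outer segments. They share much of their gene programme, including transcription factors of photoreceptor identity and parts of the synapse, while several proteins of the cascade exist in a rod form and a cone form. Bipolar cells receive their signal, horizontal and amacrine cells shape it laterally, ganglion cells send it to the brain, and Müller glia support all of them. A score for photoreceptors in general is therefore one on which rods and cones can be set beside the other cell types.

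The series held 2 single-nucleus RNA libraries from the retina of 10-month-old rabbits, 1 of wild-type animals and 1 of CLRN1 knockout animals. CLRN1 encodes clarin-1, a membrane protein whose loss causes a form of Usher syndrome, with loss of hearing and of photoreceptors. Nuclei came from a 5 mm punch of the visual streak, the horizontal band of densest cells in the rabbit retina, at 2 to 3 mm ventral of the medullary rays. Each library pooled the nuclei of 3 animals and was read with a 3' droplet chemistry. The animals were not separated here, so genotype, pool of animals and library cannot be told apart and no test between genotypes was possible. The labels do not describe the knockout allele, and the knockout was not checked here.

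There were 3484 wild-type nuclei with 6916018 UMIs in all and 3058 knockout nuclei with 8233524 UMIs. The median nucleus had 1176 UMIs in the wild-type and 1553 in the knockout library, over a range of 499 to 30726. The 2 libraries shared 5 cell barcodes. The authors labelled 4296 nuclei as rods, 305 as cones, 1029 as amacrine cells, 324 as ganglion cells, 222 as bipolar cells, 185 as Müller glia and 181 as horizontal cells, in 26 clusters. Intervals below are exact 95% intervals over nuclei (Clopper-Pearson for shares, order statistics for medians). They cover the sampling of nuclei only, not the spread between animals.

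Over all nuclei the score had a median of -0.55 and ran from -1.20 to 3.04. The distribution was not a single peak. At each depth a narrow lower peak was followed by a second group of nuclei above it, and in shallow nuclei the space between was empty. The lower group held most nuclei, except at 8003 UMIs or more, where 73.4% belonged to the second group. The lower peak of the density fell from -0.53 in nuclei of 499 to 599 UMIs to -0.90 in nuclei of 8003 UMIs or more. In the shallowest of 13 windows of depth the main peak above it stood at 0.94, a distance of 1.47. The distance shrank with depth to 0.87 in nuclei of 1500 to 1999 UMIs and to 0.47 in nuclei of 3001 to 3998 UMIs, and it was 0.57, 0.48 and 0.87 in the 3 deeper windows.

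**Figure D1:**
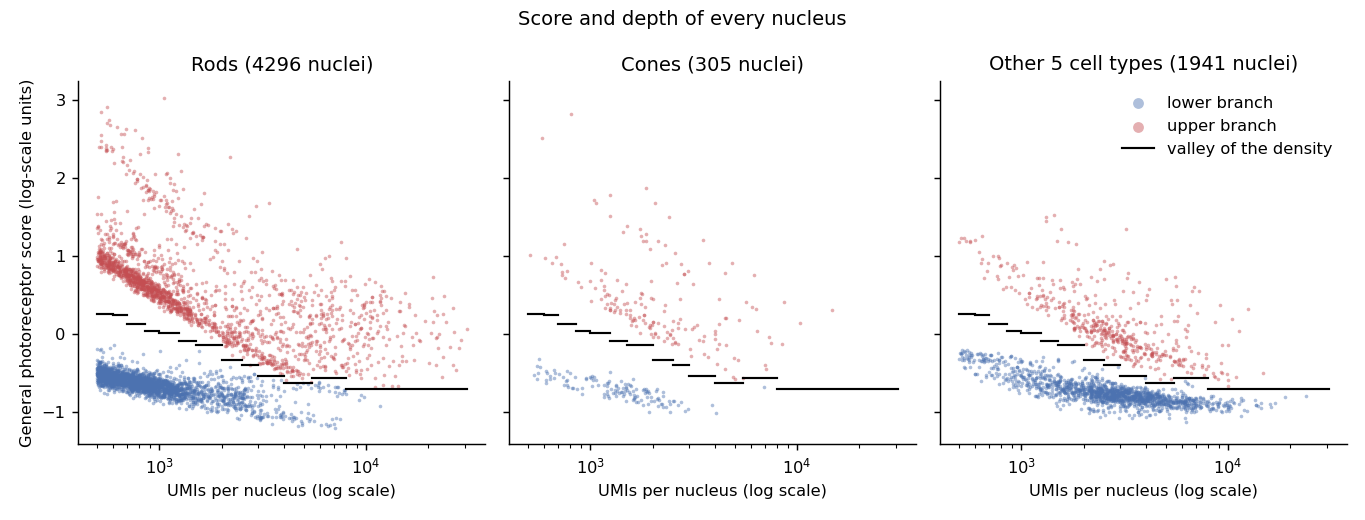
Score of every nucleus (vertical axis, log-scale units) against its UMIs (horizontal axis, log scale) in rods, cones and the other 5 cell types together. Blue points are nuclei of the lower branch, red points those of the upper branch, and black steps mark the lowest density between the branches in each of 13 windows of depth. Both branches slope downward with depth, and rods hold a further sparse group near 2 to 3 at the lowest depth.

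The 2 groups are termed the lower and the upper branch here. The limit between them was the lowest point of the density over all nuclei between the lower peak and the main peak above it, taken in each window. Of 3569 nuclei with under 1500 UMIs, 0 lay within 0.05 of that limit. Of 2973 deeper nuclei, 19 did. In the 7 deeper windows the density at the limit was 1.00% to 36.9% of that at the upper peak, so the branches run into each other in deep nuclei and the assignment of a single nucleus is less certain there.

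The distance between the branches was set beside the value of 1 UMI. In a log-normalised table with a scale factor of 10000, which is assumed here, 1 UMI of a gene has the value ln(1 + 10000/UMIs), and this value falls with depth. The distance between the peaks was 0.448 to 0.511 of that value in 11 of 13 windows. The other windows gave 0.344 (3001 to 3998 UMIs) and 1.29 (8003 UMIs or more). How this step relates to the genes of the list was not tested.

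The 3 classes of nuclei differed in the shape of their distributions. Rods had a median of -0.50 (interval -0.52 to -0.49) with quartiles at -0.65 and 0.48, and 44.3% of them (42.8% to 45.8%) lay in the upper branch. Cones had a median of -0.09 (-0.39 to 0.04) with quartiles at -0.69 and 0.39, and 57.4% (51.6% to 63.0%) lay in the upper branch. The median of cones fell between the main peaks of cones of 1000 to 1999 UMIs, at -0.73 and 0.32. In cones of 2000 to 3999 UMIs a peak stood near it, at -0.01. The interval of this median is wide. By means, cones (-0.06) and rods (-0.12) lay closer together. The other 5 cell types together had a median of -0.72 (-0.73 to -0.70) with quartiles at -0.82 and -0.34, and 24.4% (22.5% to 26.3%) lay in the upper branch. The intervals of all 3 shares were apart from each other. These nuclei differed in depth, with a median of 947 UMIs in rods, 1676 in cones and 2748 in the others.

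A single limit on the score did not separate photoreceptors from the rest. The midpoint between the median of rods and cones together and that of the other types was -0.61. Of the other nuclei 36.6% lay above it, and of rods 33.5% lay below it. That midpoint lies inside the lower branch of shallow nuclei, and it was at -0.43 in nuclei under 1000 UMIs and at -0.51 in nuclei of 2000 to 3999 UMIs. The upper branch, which moves with depth, was used for the comparisons that follow.

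**Figure D2:**
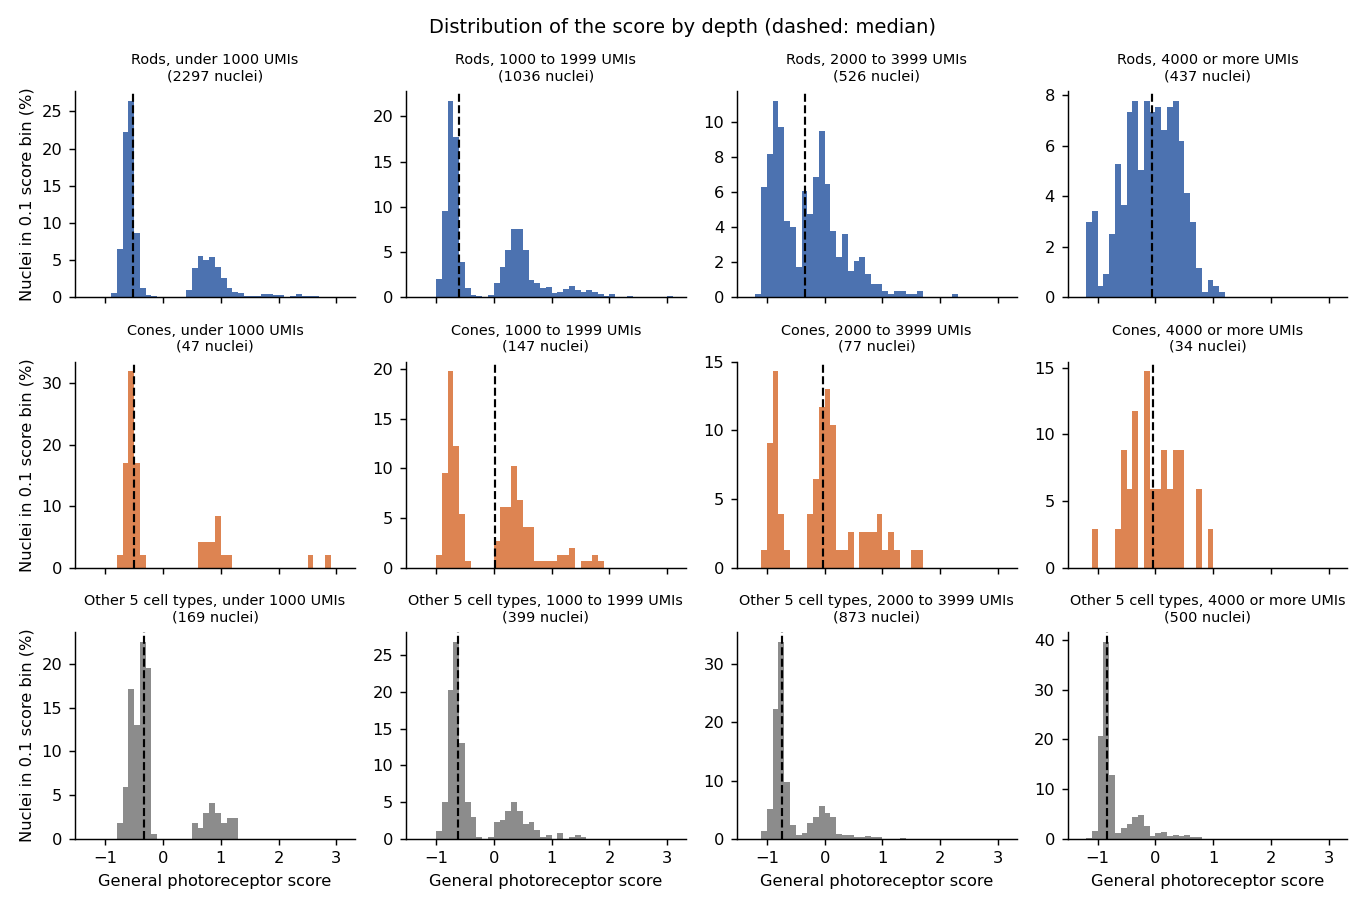
Distribution of the score (horizontal axis, bins of 0.1) as percent of nuclei (vertical axis, scaled per panel) in rods, cones and the other 5 cell types, within 4 bins of UMIs. Dashed lines mark medians. Rods and cones move from a high lower peak at low depth to mostly upper values at 4000 UMIs or more, where the other types still peak below -0.8.

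Within bins of depth the share of rods in the upper branch rose. It held 34.0% of rods under 1000 UMIs (32.0% to 35.9%, 2297 nuclei), 43.6% at 1000 to 1999 UMIs (40.6% to 46.7%), 56.3% at 2000 to 3999 UMIs (51.9% to 60.6%) and 85.6% at 4000 UMIs or more (81.9% to 88.7%, 437 nuclei). No interval overlapped the next. Cones went the same way, with 29.8% of 47 nuclei (17.3% to 44.9%), 51.0% of 147 (42.7% to 59.3%), 70.1% of 77 (58.6% to 80.0%) and 94.1% of 34 (80.3% to 99.3%). At matched depth the intervals of cones and rods overlapped in all 4 bins. This rise rests on a limit that falls with depth: at a fixed limit of 0 the share above it in the 4 bins was 34.0%, 43.3%, 27.2% and 45.5% in rods and 29.8%, 51.0%, 48.1% and 47.1% in cones. In amacrine, horizontal and ganglion cells together it was 16.5%, 17.9%, 8.76% and 1.74% at that limit. In the deepest bin the rod distribution had no single dominant lower peak: its density had peaks at -1.09, -0.67, -0.41, -0.10, 0.09 and 0.27 that were 44.4% to 100% as high as the highest, besides a low one at 0.98.

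Amacrine, horizontal and ganglion cells, which are not photoreceptors, give the level of the upper branch outside the photoreceptor pathway. It held 18.7% of their 1534 nuclei (16.8% to 20.8%). By depth the share was 16.5%, 17.9%, 20.1% and 17.6%, so it did not rise as in rods and cones. Amacrine cells gave 19.3% (17.0% to 21.9%), horizontal cells 19.3% (13.9% to 25.9%) and ganglion cells 16.4% (12.5% to 20.8%). Rods and cones were above the 3 reference types together in the 3 bins from 1000 UMIs with intervals apart. Under 1000 UMIs rods were apart from it and cones overlapped it, at 16.5% (10.4% to 24.4%) for the 3 types together. RNA free in the droplets can give UMIs of photoreceptor genes in any nucleus, and its part in these shares was not tested.

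Bipolar cells stood with the photoreceptors. Their median was -0.26 (-0.49 to -0.09), and 57.7% of 222 nuclei (50.9% to 64.2%) lay in the upper branch, close to the 57.4% of cones. By depth the share was 36.8%, 51.9%, 58.3% and 95.2% (20 of 21 nuclei at 4000 UMIs or more), and in each bin its interval overlapped that of rods. From 1000 UMIs upward its intervals were apart from those of amacrine, horizontal and ganglion cells together. By this share, nuclei labelled bipolar were not set apart from rods by a score named for photoreceptors. The bipolar score of the same nuclei had a median of 0.71, above their rod score of 0.38 and their general score, and in 86.9% of them the bipolar score was the higher of bipolar and general.

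Müller glia changed between bins. The upper branch held 20.7%, 23.8% and 25.7% of them below 4000 UMIs, and 18 of 19 nuclei (94.7%, 74.0% to 99.9%) above. The other scores of these 19 nuclei moved as well. Their rod score had a median of 0.83 against -0.19 in Müller nuclei of 2000 to 3999 UMIs, and their Müller score 0.63 against 1.67. The part of rod RNA in these 19 nuclei, by doublets or otherwise, was not tested.

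**Figure D3:**
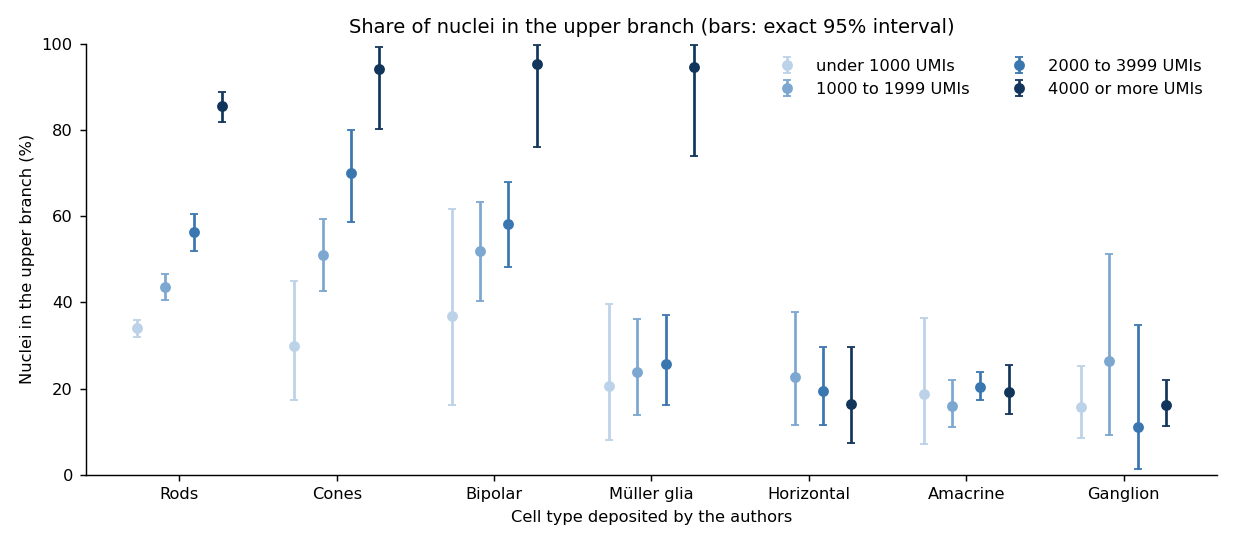
Share of nuclei in the upper branch (vertical axis, percent) for each deposited cell type within 4 bins of UMIs, drawn where a bin held at least 10 nuclei. Bars are exact 95% intervals over nuclei. Rods, cones and bipolar cells rise with depth, horizontal, amacrine and ganglion cells lie between 11.1% and 26.3%, and Müller glia are high only at 4000 UMIs or more.

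With the 2 middle bins weighted equally, so that types are compared at like depth, cones stood at 60.6%, bipolar cells at 55.1% and rods at 49.95%. Müller glia stood at 24.7%, horizontal cells at 21.1%, ganglion cells at 18.7% and amacrine cells at 18.2%. Neighbours within each of these 2 groups had overlapping intervals in both bins, with the gap lying between rods and Müller glia. The ganglion value rests on few nuclei, 19 and 18 in the 2 bins. All 19 were of cluster 14, and 13 of the 18 were of cluster 7.

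Some nuclei rose further than 1 step. Counted in the value of 1 UMI at a nucleus's own depth, the upper branch of rods had a median of 0.507 of it above the lower peak under 1000 UMIs, 0.508 at 1000 to 1999, 0.489 at 2000 to 3999 and 1.10 at 4000 or more. The share of rods more than 0.75 of it above the lower peak was 3.22%, 7.72%, 13.1% and 60.2% in the 4 bins. In cones it was 4.26%, 9.52%, 20.8% and 52.9%. In amacrine, horizontal and ganglion cells together, it was 0 of 121 nuclei in the shallowest bin, and 1.56%, 0.575% and 1.96% in the deeper ones. At 4000 UMIs or more it was 61.9% in bipolar cells and 68.4% in Müller glia (13 of 19 nuclei).

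The relation of the score to depth had opposite parts. Spearman's rank correlation between score and UMIs over all 4296 rods was -0.12. Within the lower branch it was -0.72 and within the upper branch -0.76. In 305 cones the rank correlation was -0.01 over all, -0.81 in the lower and -0.55 in the upper branch. In 1941 nuclei of the other types it was -0.49, -0.76 and -0.72. Over all depths both branches thus fell with depth in every class, while in rods and cones more nuclei were in the upper branch at greater depth. The limit that defines the branches itself fell, from 0.26 at 499 to 599 UMIs to -0.70 at 8003 UMIs or more. The sign of the rank correlations within a branch is therefore set in part by the split. The median of the upper branch of rods was 0.82, 0.45, -0.02 and 0.03 in the 4 bins, with no fall from the third bin to the fourth. Score and UMI count come from the same molecules, so these values are descriptions. With the number of detected genes in place of UMIs, the rank correlation was -0.13 in rods.

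The 7 rod clusters were not alike. Cluster 2 had the highest median of the rod clusters, -0.11, with 74.8% of 813 nuclei in the upper branch (71.7% to 77.7%), and it was also the deepest of them at a median of 3968 UMIs. Cluster 9 had the lowest median, -0.67, with 36 of 180 nuclei there (14.4% to 26.6%). Clusters 10 and 16 were also low, with 13.3% (8.19% to 19.97%) and 15.4% (8.21% to 25.3%). At like depth, over the 2 middle bins, clusters 3, 1 and 2 stood at 71.0%, 61.5% and 59.8%, near the level of cones. Clusters 9, 10 and 16 stood at 21.2%, 17.8% and 17.6%, near the level of amacrine cells, under the same rod label.

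The 2 largest rod clusters differed in shallow nuclei too. Under 1000 UMIs the upper branch held 29.9% of 1390 nuclei of cluster 0 (27.5% to 32.4%) and 42.4% of 576 nuclei of cluster 1 (38.3% to 46.5%), at median depths of 645 and 830 UMIs. Cluster 3, with a median mitochondrial share of 0.970%, held 42.7% of 246 nuclei there (36.4% to 49.1%) at 681 UMIs, a depth close to that of cluster 0. In all rods, those with 1% or more mitochondrial UMIs had 40.2% in the upper branch (34.5% to 46.1%) and those under 1% had 44.6% (43.0% to 46.1%). Below 2000 UMIs the order was not the same: under 1000 UMIs the values were 37.2% and 33.7%, and at 1000 to 1999 UMIs 45.6% and 43.5%, with overlapping intervals. At 2000 to 3999 UMIs the order was that of all rods, with 16 of 30 nuclei against 280 of 496.

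Ganglion cells consisted of 2 clusters with different lower branches. Cluster 7 had a median of -0.86 at 6458 UMIs. Cluster 14 had a median of -0.31 at 704 UMIs and a higher mitochondrial share, 4.47% in its nuclei under 1000 UMIs. The upper branch held 16.1% of cluster 7 and 16.8% of cluster 14, so their medians lay apart while each share lay inside the interval of the other. Under 1000 UMIs the lower branch of cluster 14 had a median of -0.31, against -0.59 in rods, -0.54 in amacrine cells and -0.43 in Müller glia of that depth. Among amacrine clusters the median ran from -0.79 (cluster 18) to -0.62 (cluster 15), and among horizontal clusters from -0.72 (cluster 19) to -0.69 (cluster 24).

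**Figure D4:**
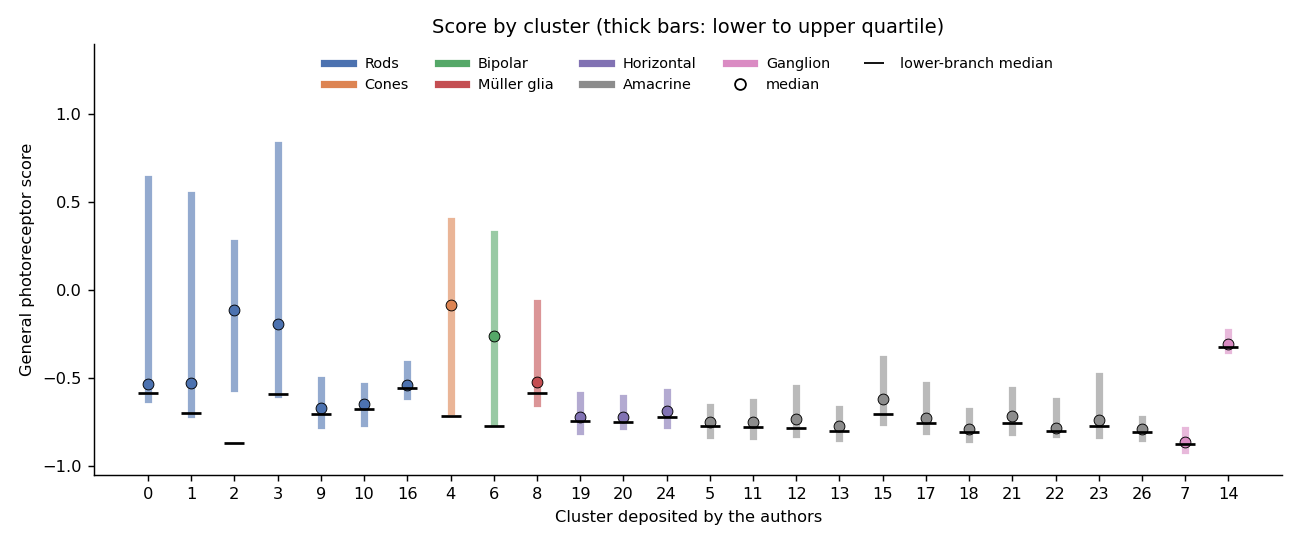
Score in each of the authors' 26 clusters (horizontal axis), coloured by deposited cell type. Circles are medians, thick bars run from the lower to the upper quartile, and black dashes are medians of the lower branch. Rod clusters 9, 10 and 16 lack the long upper quartile of clusters 0 to 3, and ganglion cluster 14 has a median of -0.31 with a narrow range between its quartiles.

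Against the other 8 scores, the general score was low in rank. Its median ranked last of the 9 in 24 of 26 clusters, 8th in rod cluster 2 and 5th in cones. It was the highest score of a nucleus in 6.26% of rods (5.56% to 7.03%), 6.31% of bipolar cells, 3.93% of cones, 2.76% of horizontal cells, 1.85% of ganglion cells, 1.62% of Müller glia and 1.36% of amacrine cells. The rod score of rods had a median of 1.19, and in 92.5% of rods it was above the general score. The cone score of cones had a median of 1.10, and in 92.5% of cones it was above the general score. The level of a score depends on the genes of its list, so levels of different scores do not compare the abundance of their genes.

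Nuclei of the upper branch were also set beside the lower branch for the other scores, within each cell type and bin that allowed it. The rod score was higher in the upper branch in 16 of 18 such comparisons, by a median of 0.14. In rods the difference was 0.02, 0.19, 0.81 and 0.35 in the 4 bins. At 2000 to 3999 UMIs, where it was largest of these (0.96 against 0.15), clusters 9, 10 and 16 made up 125 of 230 lower-branch rods and 35 of 296 upper-branch rods. The rank correlation of rod and general score in the 18 comparisons ran from -0.174 (ganglion cells under 1000 UMIs) to 0.439 (rods at 4000 UMIs or more). In rods under 1000 UMIs it was 0.0002. The cone score was higher in the upper branch in 10 of 18, with a median difference of 0.00. Rods under 1000 UMIs had a median rod score of 1.37 in the upper and 1.35 in the lower branch. Whether the 2 gene lists share genes was not tested.

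Between the libraries, rods had a median score of -0.44 (-0.48 to -0.37) in the knockout and -0.52 (-0.54 to -0.51) in the wild-type library. The upper branch held 49.4% of 2059 knockout rods (47.3% to 51.6%) and 39.5% of 2237 wild-type rods (37.5% to 41.6%). Knockout rods were also deeper, at a median of 1067 against 869 UMIs. The difference of medians, 0.09, was 0.40 in rods of 1000 UMIs or more and 0.0097 without cluster 2. Within bins of depth the share was 35.7% against 32.7% under 1000 UMIs, 48.3% against 38.7% at 1000 to 1999, 57.9% against 54.1% at 2000 to 3999 and 88.1% against 80.8% at 4000 or more. The knockout library was the higher in 4 of 4 bins, by a weighted 5.27 percentage points. Opposite ends of the 2 libraries' intervals in every bin, weighted in the same way, gave a range of -2.45 to 13.0 points. This range is wider than a 95% interval of the weighted difference, which was not computed. Intervals were apart only at 1000 to 1999 UMIs (44.0% to 52.6% against 34.5% to 43.1%). Without clusters 9, 10 and 16 they overlapped there (48.5% to 57.7% against 39.5% to 49.4%) and were apart only at 4000 UMIs or more (87.7% to 94.6% against 74.2% to 87.2%). The libraries held these clusters unequally. The knockout library gave 76 of 78 nuclei of cluster 16, and the wild-type library 126 of 180 of cluster 9 and 86 of 143 of cluster 10. The rod score was higher in the knockout library in the same 4 bins, for example 1.35 against 0.97 at 1000 to 1999 UMIs. In cluster 2 the share was 82.4% against 66.0%, at 4798 against 3191 UMIs, and 9.37 points higher within bins.

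In cones the upper branch held 74.0% of 123 knockout nuclei (65.3% to 81.5%) and 46.2% of 182 wild-type nuclei (38.8% to 53.7%), and the medians were 0.06 (-0.06 to 0.14) and -0.49 (-0.59 to -0.09). The difference of medians was 0.55 and that of means 0.13. Knockout cones were deeper, at 2144 against 1412 UMIs. At 1000 to 1999 UMIs the share was 63.0% of 46 against 45.5% of 101, and at 2000 to 3999 UMIs 85.7% of 42 (71.5% to 94.6%) against 51.4% of 35 (34.0% to 68.6%), with intervals apart in the second of these. The weighted difference was 24.8 points. Opposite ends of the intervals, weighted in the same way, gave -3.43 to 49.6, again a range wider than a 95% interval of that difference. Whether cones and rods differ in this was not tested. Over these bins the rod score of cones was 0.38 against 0.45 and 0.87 against 0.75, and the depth within them still differed, at 1627 against 1376 and 2572 against 2316 UMIs. The other 2 bins held fewer than 10 cones of 1 library and were left out of it. Under 1000 UMIs 1 of 9 knockout and 13 of 38 wild-type cones lay in the upper branch, the opposite order, and at 4000 UMIs or more 25 of 26 and 7 of 8.

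**Figure D5:**
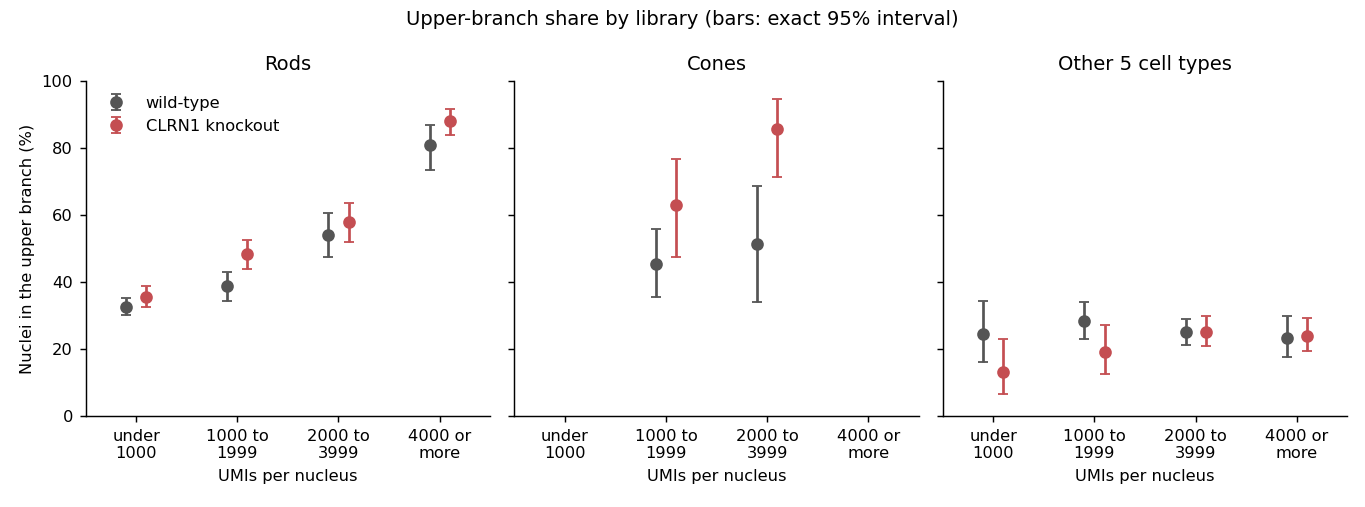
Share of nuclei in the upper branch (vertical axis, percent) in the wild-type (grey) and the CLRN1 knockout library (red) within bins of UMIs, for rods, cones and the other 5 cell types. Bars are exact 95% intervals over nuclei, and bins with fewer than 10 nuclei of a library are not drawn. The knockout library is the higher in each bin of rods and cones drawn, and the other types show no such order.

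The other 5 cell types together showed no common direction. The upper branch held 22.9% of 876 knockout and 25.5% of 1065 wild-type nuclei, with overlapping intervals. The knockout library was higher in 2 of 4 bins, and the weighted difference was -2.28 points. Müller glia went from 35.2% against 29.8% over all depths to 13.3% against 27.1% and 22.2% against 27.7% in the 2 bins that could be compared, with overlapping intervals. Bipolar cells had 61.3% against 55.6%, also overlapping, with 8 of 20 nuclei against 33 of 59 at 1000 to 1999 UMIs and 65.1% against 53.3% at 2000 to 3999. Ganglion cells had medians of -0.45 in the knockout and -0.83 in the wild-type library, with upper branch shares of 16.5% and 16.2%. Cluster 14 held 81 of 176 knockout and 26 of 148 wild-type ganglion nuclei, and within cluster 7 the medians were -0.88 and -0.85. None of these differences can be told apart from one between pools of animals or between captures.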

How the data were processed

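Single-nucleus RNA was measured in 1 pooled library per genotype. Seurat 4.3.0, Cell Ranger 7.0, DESeq2 1.38.0 and the build OryCun2.0 stand, without roles, in the submitters' processing notes. The authors deposited a table of nuclei with raw UMI counts and detected genes per nucleus, the mitochondrial share as a percent of UMIs, and 9 module scores on a log scale. Cell types and clusters are the authors' deposited labels. The sources used here do not give how nuclei were filtered or how doublets and free RNA were treated, and no doublet caller was run. The deposited count matrix and embedding were not used here, since numbers stand in it for genes and nuclei, and animals were not separated.

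Nuclei were given to libraries by library name. Medians, quartiles, shares and Spearman's rank correlations were computed with Python 3.11.15, pandas 2.3.3, NumPy 2.4.6 and SciPy 1.17.1. Densities used a Gaussian kernel of width 0.05 in 13 windows of UMIs. The lower peak was the lowest one at 40% or more of the highest peak's height, and the upper peak the highest one more than 0.2 above it. This rule was chosen after seeing the data, and adjusted once after a test on simulated data in which the upper peak was the higher. Nuclei could not be thinned to 1 depth without the genes of the score, so bins divided at 1000, 2000 and 4000 UMIs were used. Library differences took bins in which each library had 10 or more nuclei, weighted by the smaller number. Named clusters were those with the highest and lowest median of each cell type and those on the other side of the midpoint from their type; clusters 0, 1, 3 and 16 were named after their values were seen. The score, the lists of clusters and the alternatives were chosen with earlier results of these data known. Alternatives were other limits on the score, other bins, weights and minimum numbers, the mean, deeper nuclei, nuclei under 1% mitochondrial UMIs and leaving out clusters. No gene was named, as the rule for named genes provided.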

Additional observations from a re-analysis of the deposited data

Results flagged for a closer look

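The difference of medians between the knockout and the wild-type library was set side by side for the cell types. It was 0.0885 in rods, 0.55 in cones and 0.38 in ganglion cells, and -0.0402 in amacrine cells. With means in place of medians the value in cones was 0.13. Within bins of depth the weighted difference was 0.0661 in rods, 0.538 in cones, -0.0196 in amacrine cells and -0.0239 in ganglion cells. The last has the other sign from the value over all depths. Knockout amacrine nuclei were also deeper, at a median of 3217 against 2523 UMIs. The values over all depths were listed because their intervals over nuclei did not overlap between the libraries and the signs differed between cell types. Whether the difference itself differs between cell types was not tested, as there is 1 library per genotype. Ganglion cells are the case in which the share in the upper branch was nearly equal in the libraries (16.5% and 16.2%) while the share of cluster 14 was not.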

How the results depend on the processing

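Of 109 alternative values, 86 stayed within a range around the reported value and 22 moved further. A further 1 moved further and changed sign (the cause was not tested). For shares the range was the 95% interval over nuclei, and for rank correlations 0.1 to either side. For differences it joined opposite ends of the 2 intervals, which is wider than a 95% interval. In rods within bins, the difference of medians between libraries, 0.066, was 0.22 with 8 bins and counted as staying (range -0.028 to 0.32). In cones that range was -0.47 to 1.00. Among the 86, the difference of medians between libraries in other types within bins, -0.00081, was up to 0.013 and had the other sign in 1 of 7 alternatives. The rank correlation of score and UMIs in rods went from -0.12 to 0.012 with nuclei of 1000 UMIs or more. With those nuclei the median difference between libraries in rods went from 0.09 to 0.40, rods minus other types from 0.21 to 0.43, other nuclei above the midpoint from 36.6% to 31.2%, rods below it from 33.5% to 39.8%, and rods in the upper branch from 44.3% to 56.1%. Without clusters 9, 10 and 16, which the libraries held unequally, the library difference in rods was 0.18, rods minus other types 0.24 and the upper branch of rods 47.1%. Without cluster 2 the first of these was 0.0097 and the second 0.18. With means, cones minus rods went from 0.42 to 0.061 and rods minus other types to 0.41. Within bins the latter was 0.34. A limit of 0 gave 13.9% of other nuclei above and 63.4% of rods below, and upper shares of 36.6% in rods, 46.6% in cones, 40.1% in bipolar cells and 13.9% in other types. A midpoint per bin gave 32.5% and 53.5%, and nuclei under 1% mitochondrial UMIs gave 33.2% above the midpoint. The weighted library difference in upper share kept its sign in all alternatives tried, from 5.03 to 7.68 points in rods and from 23.1 to 25.4 points in cones. Some alternatives could not change a value but count among the 86. Taking nuclei of 1000 UMIs or more left cones within bins unchanged, as no shallower bin of cones was used. A minimum of 20 nuclei per bin dropped no bin, so the differences of medians within bins stayed the same. Alternatives on the upper share were chosen after seeing the data. Depth limits the score: the value of 1 UMI, at the assumed scale factor, is larger in shallow nuclei. The distance between the branches was also larger there, but it did not keep falling from 3001 UMIs upward. No paired analysis was possible because each genotype is 1 library, and for the same reason no replicate could be left out.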
